A study of Homo sapiens with 4 samples.

Results

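The genes examined here encode the Snail-family repressors and the chromatin enzymes they recruit to shut down epithelial promoters. They are SNAI1, SNAI2, SNAI3, EHMT2, EHMT1, SUV39H1, DNMT1, HDAC1, HDAC2 and KDM1A. They were taken by name, because this complex has been proposed to silence both FBP1 and CDH1. All 10 were found among the 18417 genes that could be named from a probe set with 1 annotated gene, and all 10 passed the filter on low values, which left 15946 genes. EHMT2 was represented by 2 probe sets with identical values on every array, and each other member by 1.

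RNA came from MDA-MB231 and Hs578T, established human breast cancer cell lines given as basal-like in the labels. Each line was measured as control cells and as stable clones expressing FBP1, the gene of a gluconeogenic enzyme that removes a phosphate from fructose bisphosphate. There was 1 array for each of the 4 combinations. What the control cells carried and how many clones were used are not given in the sources used here. All cells grew in medium with serum and were harvested in log-phase growth. Levels are log2 intensities, so a difference of 1 is 2-fold.

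Snail-family proteins bind E-box sequences through zinc fingers and, through a short N-terminal SNAG domain, attract co-repressors. The histone demethylase LSD1, encoded by KDM1A, removes methyl marks of active chromatin. The deacetylases HDAC1 and HDAC2 remove acetyl groups. G9a (EHMT2) with its partner GLP (EHMT1), and SUV39H1, methylate lysine 9 of histone H3, and DNMT1 copies DNA methylation onto CpG sites after replication. Loss of the CDH1 product E-cadherin by this route is a known step of epithelial-mesenchymal transition (EMT). Snail protein is short-lived and controlled after translation, which an mRNA array does not measure.

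The target promoter is shown for its CG sites. Windows of EHMT2 and SUV39H1, the histone methyltransferase genes that differed between the lines, are shown because each held the E-box type marked below. The windows are the 250 bases before a RefSeq gene start on GRCh38.p14. In FBP1, on the minus strand at chr9:94639519-94639768, capitals mark CG, the substrate of DNMT1. In EHMT2 (minus strand, chr6:31897699-31897948) and SUV39H1 (plus strand, the first of its 2 listed starts, chrX:48695304-48695553), capitals mark CACCTG, the E-box that Snail prefers, read on either strand.
FBP1: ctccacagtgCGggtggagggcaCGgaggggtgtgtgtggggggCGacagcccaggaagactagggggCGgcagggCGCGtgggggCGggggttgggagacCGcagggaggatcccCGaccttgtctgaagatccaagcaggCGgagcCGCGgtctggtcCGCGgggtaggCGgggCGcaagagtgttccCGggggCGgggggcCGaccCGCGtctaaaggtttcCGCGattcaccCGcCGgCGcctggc
EHMT2: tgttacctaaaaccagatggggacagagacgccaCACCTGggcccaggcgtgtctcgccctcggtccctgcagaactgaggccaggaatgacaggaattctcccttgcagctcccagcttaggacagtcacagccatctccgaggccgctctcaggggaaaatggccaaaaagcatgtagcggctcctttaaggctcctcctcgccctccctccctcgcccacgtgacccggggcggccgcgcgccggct
SUV39H1: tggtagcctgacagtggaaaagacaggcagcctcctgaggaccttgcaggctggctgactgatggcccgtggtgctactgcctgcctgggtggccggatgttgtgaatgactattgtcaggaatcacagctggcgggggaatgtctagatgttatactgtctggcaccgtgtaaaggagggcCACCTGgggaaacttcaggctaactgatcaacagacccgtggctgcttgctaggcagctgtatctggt
The FBP1 window held 26 CG, and 19.6% of all 35116 windows held at least as many, against a median of 11. It held no CAGGTG or CACCTG and no E-box of the general form CANNTG. RefSeq windows were found for 7 of the 10 members, 8 windows in all. CAGGTG or CACCTG occurred in 2 of the 8, the EHMT2 window shown, 216 bases before the start, and the SUV39H1 window shown, 68 bases before it. Of all windows 17.5% held one. CANNTG, which includes CAGGTG, occurred in 3 of the 8 and in 61.8% of all windows. The window of the other SUV39H1 start, not shown, held 35 CG and no CANNTG. These matches describe letters in the windows and are not binding sites.

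The introduced gene and the other proposed target were read first. In MDA-MB231, FBP1 stood at 9.83 on the control array and 13.07 on the FBP1 array, and in Hs578T at 6.35 and 13.35, so both FBP1 arrays matched their labels. CDH1 stood at 7.64 and 7.90 in MDA-MB231 and at 6.53 and 6.34 in Hs578T. CDH1 was 2.52-fold higher in MDA-MB231 (log2 difference 1.33, SE 0.14, limma adjusted p = 0.000737). The FBP1 difference between control arrays was 3.48, also with MDA-MB231 the higher, and has no test because 1 array stands on each side. FBP1 in the Hs578T control and CDH1 in both Hs578T arrays lay close to the filter level of 6.16 and were not shown to be above background, so sizes that rest on them are uncertain. CDH1 in MDA-MB231 lay near the array medians of 7.83 to 7.86 and was likewise not tested against background.

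The first question was whether the lines differ in the complex itself. SNAI1, EHMT2 and SUV39H1 were higher in MDA-MB231, and SNAI2 and KDM1A were higher in Hs578T. These 5 of the 10 members passed limma's test at adjusted p under 0.05, against 40.8% of all tested genes. The 3 higher in MDA-MB231 compare with 21.8% of all genes, and the 2 higher in Hs578T with 19%. The median size of the line difference was 0.33 over the 10 members and 0.24 over all tested genes. The arrays of the lines did not overlap for any of the 10, which was also true of 73% of all tested genes. A line is represented here by its control and FBP1 arrays, and the fit removes the mean FBP1 change. The p-values therefore rest on how far that change differed between the lines, moderated by variance pooled over all genes. They do not measure spread between repeats of one culture. In cultures measured as a whole, fewer cells expressing a gene and less RNA per cell cannot be told apart.

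**Figure D1:**
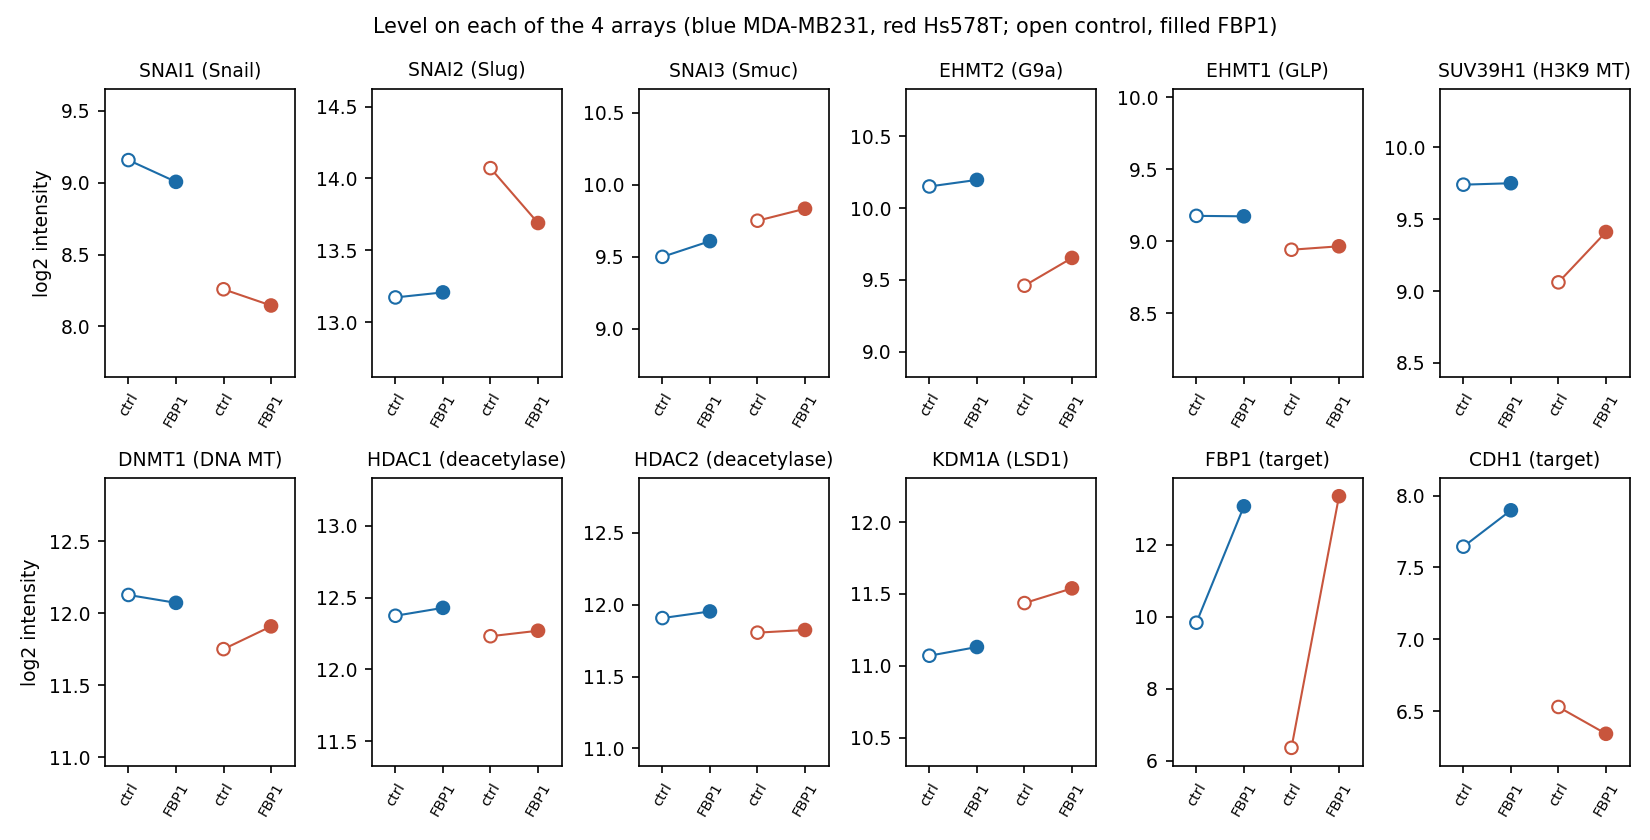
Log2 intensity of the 10 members and of FBP1 and CDH1 on each of the 4 arrays, MDA-MB231 in blue and Hs578T in red, control open and FBP1 filled, with lines joining the arrays of a cell line. Axes span 2 log2 units, except 8 for FBP1, so slopes can be compared between the other panels. SNAI1 sits near 9 in MDA-MB231 and near 8 in Hs578T, whereas SNAI2 is higher in Hs578T.

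Among the Snail factors, SNAI1 (Snail) stood at 9.16 and 9.01 in the control and FBP1 arrays of MDA-MB231 and at 8.26 and 8.15 in those of Hs578T. It was 1.84-fold higher in MDA-MB231 (log2 difference 0.88, SE 0.10, 95% interval 0.63 to 1.13, limma adjusted p = 0.00115). The difference was nearly the same between control arrays (0.90) and between FBP1 arrays (0.86). A line difference at least this large was seen in 13.0% of tested genes.

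SNAI2 (Slug), a related repressor, had the opposite order. Its levels were 13.17 and 13.21 in MDA-MB231 and 14.07 and 13.69 in Hs578T. It was 1.61-fold higher in Hs578T (log2 difference −0.69 as MDA-MB231 minus Hs578T, SE 0.10, limma adjusted p = 0.00297). The gap was −0.90 between control arrays and −0.48 between FBP1 arrays, because the Hs578T FBP1 array was the lower of its line.

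SNAI3 (Smuc), the least studied of the family, stood at 9.50 and 9.61 in MDA-MB231 and 9.75 and 9.83 in Hs578T. Both Hs578T arrays were the higher, but the difference of −0.24 (95% interval −0.48 to 0.01) did not pass (limma adjusted p = 0.110).

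Of the lysine 9 methyltransferase genes, EHMT2 stood at 10.15 and 10.20 in MDA-MB231 and at 9.46 and 9.65 in Hs578T, which is 1.53-fold higher in MDA-MB231 (log2 difference 0.62, SE 0.10, limma adjusted p = 0.00499). SUV39H1 stood at 9.74 and 9.75 in MDA-MB231 and at 9.06 and 9.41 in Hs578T, which is 1.42-fold higher in MDA-MB231 (0.51, SE 0.12, limma adjusted p = 0.0186). The SUV39H1 gap was 0.68 between control arrays and 0.34 between FBP1 arrays. EHMT1, whose product pairs with G9a, stood at 9.18 and 9.17 against 8.94 and 8.96. Its difference of 0.22 (95% interval −0.02 to 0.47) did not pass (limma adjusted p = 0.135).

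DNMT1 stood at 12.13 and 12.07 in MDA-MB231 and at 11.75 and 11.91 in Hs578T. The arrays of the lines did not overlap, but the difference of 0.27 (SE 0.09) lay just outside the threshold (limma adjusted p = 0.0537). It passed with probe sets below the 50th percentile left out (limma adjusted p = 0.0430), with the line term alone (0.0422) and without the Hs578T FBP1 array (0.0083). Over its alternatives the adjusted p ranged from 0.0083 to 0.241.

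HDAC1 stood at 12.37 and 12.43 in MDA-MB231 and at 12.23 and 12.27 in Hs578T, a difference of 0.15 (95% interval −0.03 to 0.33, limma adjusted p = 0.153). HDAC2 stood at 11.91 and 11.95 against 11.81 and 11.82, a difference of 0.12 (−0.08 to 0.31, limma adjusted p = 0.301). The intervals of both deacetylases leave out differences of 1.5-fold. KDM1A stood at 11.07 and 11.13 in MDA-MB231 and at 11.44 and 11.54 in Hs578T. It was 1.31-fold higher in Hs578T (−0.39, SE 0.09, limma adjusted p = 0.0145), on the same side as SNAI2. Related genes such as HDAC1 and HDAC2 can share probe binding, which adds uncertainty to their single values.

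**Figure D2:**
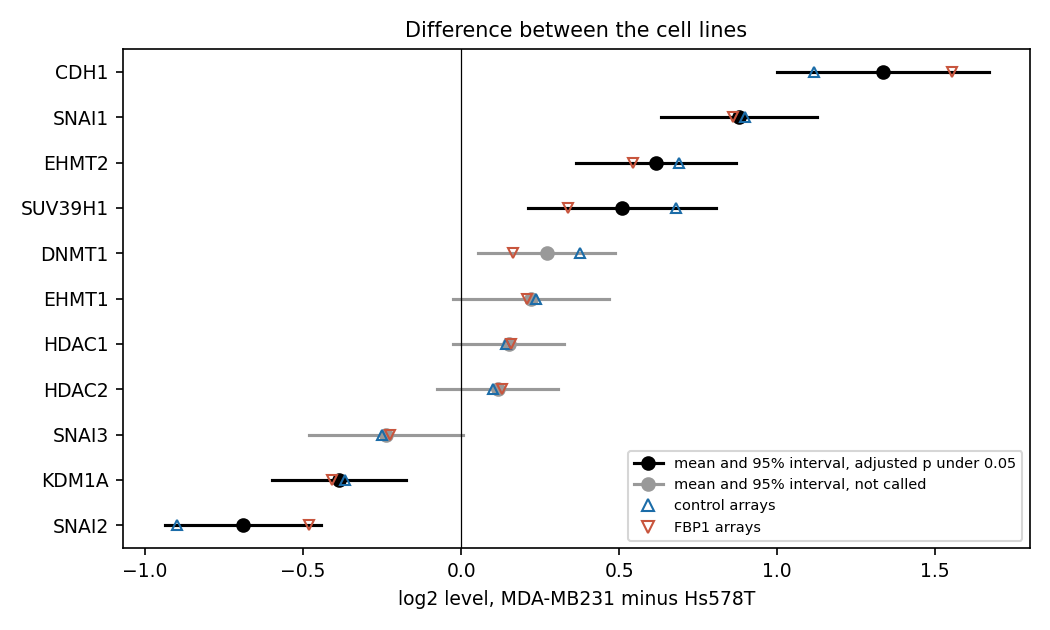
Log2 level in MDA-MB231 minus that in Hs578T for the 10 members and CDH1, with circles and bars for the mean and 95% interval from the fit over 4 arrays, and open triangles for the control arrays and the FBP1 arrays alone. SNAI1 (0.88), EHMT2 (0.62) and SUV39H1 (0.51) lie above 0 and SNAI2 (−0.69) and KDM1A (−0.39) below it, each with an interval clear of 0, as is that of DNMT1, which is drawn grey because its adjusted p is 0.0537.

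With the MDA-MB231 control array left out and the line term fitted alone, 1 member passed, SNAI1, and with the MDA-MB231 FBP1 array left out 2 passed, SNAI1 and SNAI2. The lone MDA-MB231 array is then assumed to vary like the Hs578T arrays.

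The next question was whether expressing FBP1 altered the complex. None of the 10 members reached 1.5-fold in either line, where 0.627% of tested genes did so in MDA-MB231 and 3.08% in Hs578T. At 2-fold the shares of tested genes were 0.0627% and 0.746%. With 1 array per group this has no test within a line. Over both lines, limma called 0 of 10 members and 0% of all genes, and at unadjusted p under 0.05 it gave 0 members and 819 genes (5.14%). FBP1 itself was not called by that fit (adjusted p = 0.943), so the absence of calls does not show that the members did not change. Members' adjusted p-values ran from 0.947 for SNAI2 to 0.997 for EHMT1.

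In MDA-MB231 the 10 log2 changes, FBP1 minus control, ran from −0.15 for SNAI1 to 0.11 for SNAI3. Their median size was 0.05, against 0.09 over all tested genes. In Hs578T they ran from −0.38 for SNAI2 to 0.35 for SUV39H1, with a median size of 0.11 against 0.12 over all genes.

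SNAI1 was the only member below its control in both lines, by −0.15 and −0.11, and kept that sign after quantile normalization and after median centring. A change at least as large was seen in 26.6% of tested genes in MDA-MB231 and in 53.4% in Hs578T. Over both lines its mean change was −0.13 (SE 0.10, limma adjusted p = 0.947).

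With FBP1, the SNAI2 value differed from control by 0.04 (MDA-MB231) and −0.38 (Hs578T), and 8.75% of tested genes had a change at least as large as the latter. SUV39H1 stood at 0.01 and 0.35, with 10.7% of genes at least as far from control in Hs578T. EHMT2 (0.05 and 0.19) and DNMT1 (−0.05 and 0.16) also lay above control in Hs578T. SNAI2, SUV39H1, EHMT2 and DNMT1, the 4 members farthest from control in Hs578T, each lay nearer to the MDA-MB231 levels on the FBP1 array than on the control array. The next by size, SNAI1 (−0.11), KDM1A (0.10) and SNAI3 (0.08), each lay farther from those levels. HDAC1, EHMT1 and HDAC2 lay nearer, by 0.04 at most, so the members did not move as a set. The pattern of the first 4 was noticed after the values were seen, and the change and the line difference share the Hs578T control array. How many of all tested genes did the same was not counted. KDM1A (0.06 and 0.10), SNAI3 (0.11 and 0.08), HDAC1 (0.06 and 0.04) and HDAC2 (0.05 and 0.02) lay above control in both lines. EHMT1 lay within 0.03 of control in both lines, and its sign in MDA-MB231 turned positive after quantile normalization or median centring. The CDH1 changes were 0.25 and −0.19.

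**Figure D3:**
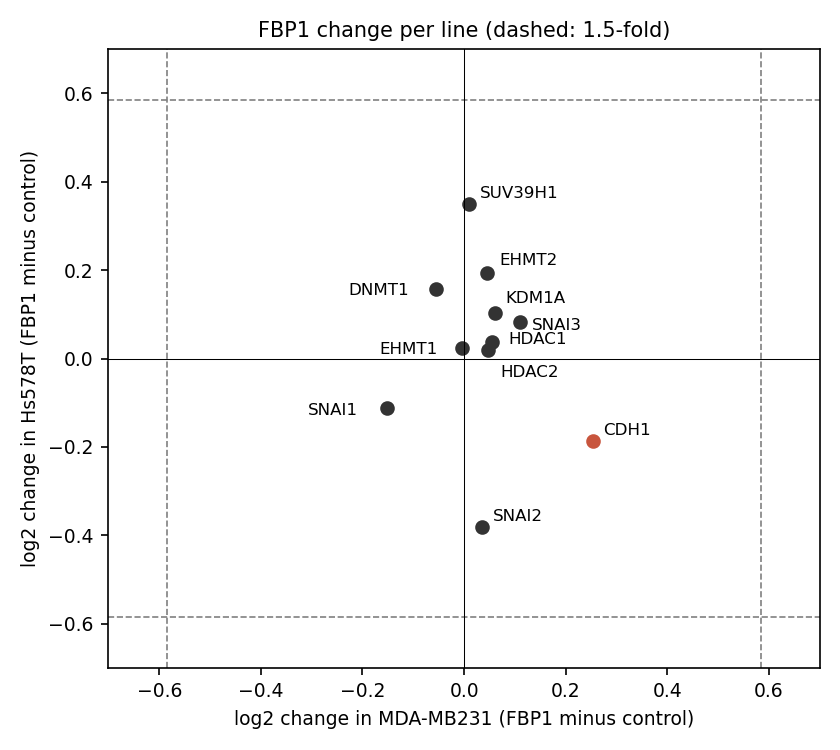
Log2 change with FBP1 in Hs578T against that in MDA-MB231 for the 10 members (black) and CDH1 (red), with 1 array per group and dashed lines at 1.5-fold. All points lie inside the dashed lines, and the spread is wider in Hs578T (−0.38 to 0.35 for members) than in MDA-MB231 (−0.15 to 0.11).

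Other genes of DNA methylation were read beside DNMT1. Of 14, 7 lay above control in MDA-MB231 and 10 in Hs578T, where 48.2% and 54.9% of all tested genes did so. Median changes of the 14 were −0.01 and 0.05, and 1, HELLS in Hs578T, was past 1.5-fold. In Hs578T 3.08% of all tested genes were past it. The largest changes in Hs578T were those of the chromatin remodeller gene HELLS (−0.03 in MDA-MB231, then 0.61), TET1, which oxidises methylcytosine (0.29 and 0.56), UHRF1, which guides DNMT1 to hemimethylated DNA (−0.08 and 0.49), and the de novo methyltransferase gene DNMT3B (0.00 and 0.42). The Hs578T changes of DNMT3A (−0.01), UHRF2 (0.04) and MBD4 (−0.18) were smaller. Past 1.5-fold lower in Hs578T were 2 of 10 lysine 9 demethylase genes, KDM3A (−0.12 and −0.66) and, narrowly, KDM7A (0.30 and −0.59). The accessory gene PHF19 (−0.15 and 0.63), 1 of 11 tested Polycomb genes, was past it on the higher side, as was HELLS. With 1 array per group none of these changes was tested within a line. Among genes known to be repressed by Snail, the tight junction gene CLDN1 stood at 0.49 and 0.83, and CLDN4 at −0.01 and 0.52.

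The partners of the complex were compared between the lines from lists by function. A list of 22 held HDAC3 and genes of CoREST, Sin3 and NuRD, complexes that between them carry HDAC1, HDAC2 and KDM1A. Of these 22, 7 were called higher in MDA-MB231 and 3 in Hs578T. That is 45.5%, near the 40.8% of all tested genes. The CoREST scaffold gene RCOR1, the direct partner of KDM1A, was 1.94-fold higher in MDA-MB231 (log2 difference 0.95, SE 0.11, limma adjusted p = 0.00125), opposite to KDM1A. MTA1 (0.70), MTA2 (0.48), SIN3A (0.46) and SUDS3 (0.40) were higher in MDA-MB231 and the methyl-CpG binding gene MBD2 (−0.65) in Hs578T. The list's median was 0.07, against −0.02 over all tested genes.

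Of 13 other genes of lysine 9 methylation, 3 were called, or 23.1%, against 40.8% of all tested genes. CDYL (0.35) and the HP1 gene CBX5 (0.36) were higher in MDA-MB231 and PRDM2 (−0.57) in Hs578T. With each array centred on its median, 1 of the 13 was called. Of 10 lysine 9 demethylase genes, 4 were called, or 40%, near the share of all genes. JMJD1C (1.51) and PHF8 (0.62) were higher in MDA-MB231 and KDM4D (−0.79) and KDM4C (−0.50) in Hs578T. Of 14 DNA methylation genes, 5 were called, or 35.7%. UHRF1 (0.65) and HELLS (0.52) were higher in MDA-MB231, and the methyl-CpG binding gene MBD1 (−0.82), UHRF2 (−0.48) and TET1 (−0.37) in Hs578T. The TET1 arrays of the lines overlapped, at 7.51 and 7.80 in MDA-MB231 and 7.74 and 8.31 in Hs578T (limma adjusted p = 0.0448). Without the filter on low values 3 of these 14 were called. DNMT3A (0.15) and DNMT3B (0.26) did not pass.

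Polycomb repression adds another methyl mark, on lysine 27, that Snail can also direct. Of 11 genes, 5 were called higher in MDA-MB231 and 1 in Hs578T, or 54.5% against 40.8% of all tested genes. Higher in MDA-MB231 were the methyltransferase gene EZH2 (0.66), its partner SUZ12 (0.36), and the accessory genes PHF19 (0.60), JARID2 (0.58) and PHF1 (0.50). EED, the third core subunit, was 2.18-fold higher in Hs578T (−1.13, SE 0.10, limma adjusted p = 0.000458), so the core genes did not differ in one direction.

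Genes that control Snail's stability or act as its cofactors differed in both directions. Of 23, 9 were called higher in MDA-MB231 and 8 in Hs578T, or 73.9% against 40.8% of all genes, with a median of 0.00. The kinase gene PRKD1 (−4.28) and the lysyl oxidase genes LOXL3 (−3.82) and LOXL2 (−1.42), whose products bind Snail, were higher in Hs578T. The PRKD1 levels in MDA-MB231 were 5.09 and 5.59, below the filter level, so the size of its difference is uncertain. The TGF-beta receptor genes TGFBR2 (1.43) and TGFBR1 (1.01) were higher in MDA-MB231 and the ligand gene TGFB1 (−1.34) in Hs578T. GSK3B, the kinase that marks Snail for degradation, was higher in Hs578T (−0.55), and BTRC, which encodes the ubiquitin ligase subunit that recognises that mark, in MDA-MB231 (0.44).

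Other EMT transcription factors were mostly higher in Hs578T, as SNAI2 was, whereas SNAI1 was higher in MDA-MB231. Of 10, 6 were called higher in Hs578T, against 19% of all tested genes, and 1 in MDA-MB231, against 21.8%, with a median of −0.73. Higher in Hs578T were PRRX1 (−3.35), FOXC2 (−1.52), TWIST1 (−1.34), TWIST2 (−0.94), ZEB2 (−0.75) and TCF4 (−0.70), and higher in MDA-MB231 was KLF8 (1.15). KLF8 stood at 5.88 and 5.86 in Hs578T, below the filter level, so the size of its difference is uncertain. ZEB1 (0.03), GSC (−0.25) and TCF3 (−0.02) did not pass.

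Genes known to be repressed by Snail were mostly higher in MDA-MB231. That line had more SNAI1 mRNA and less SNAI2 mRNA, and a link of either to these genes was not tested. Of 19 without FBP1, 11 were called higher in MDA-MB231, against 21.8% of all tested genes, and 1 in Hs578T, against 19%. That is 63.2% called, against 40.8% of all tested genes, with a median of 0.55. KRT8, KRT18, KRT19 and ESR1 are also among the luminal markers read below, so these lists are not independent. KRT19 (4.05), KRT8 (3.38), CLDN7 (3.22), the desmosome gene PKP2 (3.09), CDH1 (1.33) and CLDN4 (1.27) were the largest, and DSP (−0.46), also a desmosome gene, was higher in Hs578T. Genes that rise in EMT lay the other way, with 6 of 9 called, all higher in Hs578T, and a median of −1.03. That is 66.7% called, against 40.8% of all tested genes. N-cadherin (CDH2, −5.62), MMP2 (−5.43), SPARC (−2.41), ITGA5 (−1.50), fibronectin (FN1, −1.03) and CDH11 (−0.65) passed, and vimentin (VIM, 0.00), at 13.71 to 13.72 on all 4 arrays, did not.

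**Figure D4:**
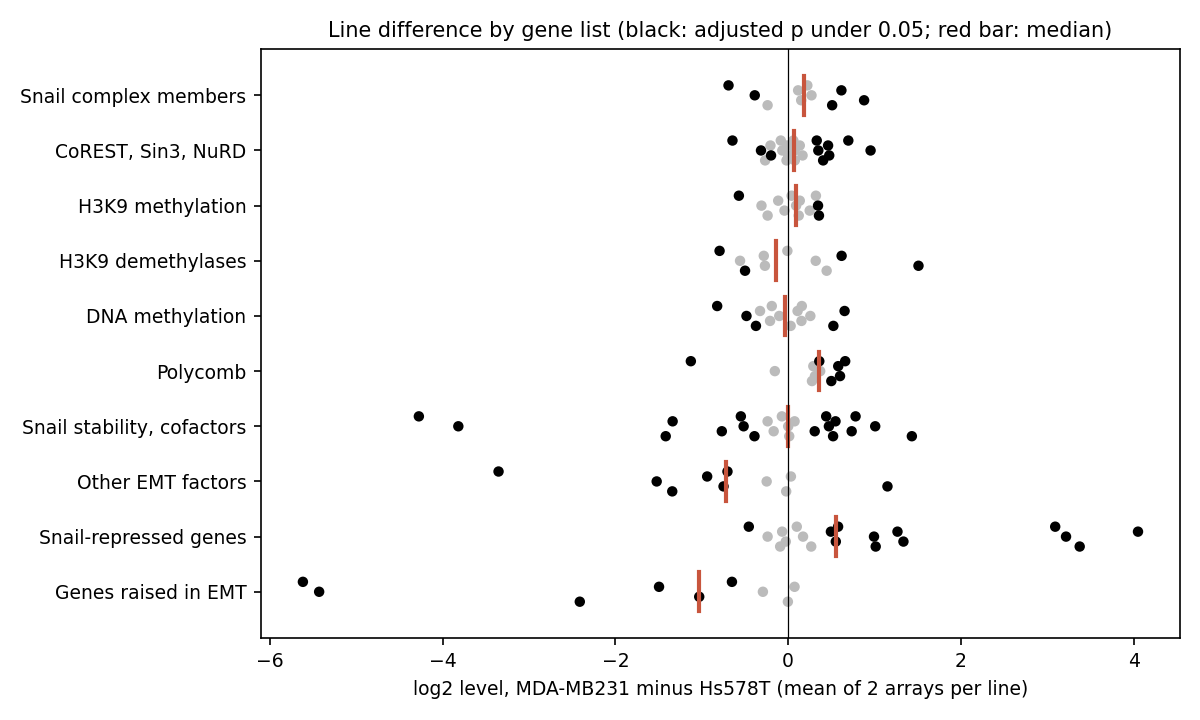
Log2 level in MDA-MB231 minus that in Hs578T for each tested gene of 10 lists, FBP1 left out, with called genes in black, others in grey and the list median as a red bar. Medians lie from −0.14 to 0.19 for the members and the chromatin lists other than Polycomb (0.36). They lie below 0 for other EMT factors (−0.73) and genes raised in EMT (−1.03). The median is above 0 for genes Snail is known to repress (0.55).

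Markers of cell types were compared between the lines, where 40.8% of all tested genes were called. The called share of tested markers was 100% for fibroblasts, 50% for luminal epithelium, 40% for endothelium and 16.7% for basal breast. It was 50% for leukocytes, of which only 2 were tested. Only the fibroblast share lay far above that of all genes. Of 7 fibroblast markers, all were called higher in Hs578T, with a mean log2 level of 10.52 to 10.75 there and 6.83 to 6.85 in MDA-MB231. Of 8 luminal markers, 4 were called, all higher in MDA-MB231, at means of 9.67 to 9.69 against 8.27 to 8.37, while ESR1 stayed at 6.64 to 6.80. KRT18 (0.10) did not pass. FOXA1 lay the other way, at 8.11 and 8.06 in MDA-MB231 and 8.33 and 8.50 in Hs578T (−0.33, limma adjusted p = 0.0591), and did not pass. Of 6 leukocyte markers 4 were below the filter, including PTPRC at 4.52 to 4.96. The others were CD68, at 10.99 to 11.60, and CD14, called higher in MDA-MB231 (0.72). Of 5 tested endothelial markers 2 were called, PECAM1 (1.61) and KDR (0.47), both higher in MDA-MB231. Of 6 basal markers 1 was called, the keratin gene KRT14, higher in Hs578T (−0.69, limma adjusted p = 0.0490), and none without the filter, with the mean of probe sets or without the intensity trend. KRT14 stood at 8.64 and 8.45 in MDA-MB231 and at 8.85 and 9.62 in Hs578T, where its change with FBP1, 0.77, was past 1.5-fold. The basal keratin gene KRT5 stood at 6.80 to 6.93, close to the filter level, and EGFR, CD44, VIM and CAV1 were at 10.63 or above on every array. The part of these markers in the differences of the members was not tested.

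Genes with the profile most like those of SNAI1, SNAI2, EHMT2 and DNMT1 were sought over the 4 arrays, by the Euclidean distance between log2 profiles centred on their means. For SNAI1 they were GRK2 (0.01), SLC44A3 (0.02) and RREB1 (0.04), and 26 genes lay within 0.1. For SNAI2 they were TSPYL2 (0.04), KCNT2 (0.04) and BAMBI (0.05), with 34 within 0.1. EHMT2 was nearest to RIMBP2, CHN1 and PMS1 (each 0.02), with 107 within 0.1, and DNMT1 to TRIM65 (0.01), IFNLR1 (0.01) and F2R (0.02), with 353. With 4 arrays a close profile is common, so this is a description only.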

How the data were processed

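RNA from control and FBP1-expressing MDA-MB231 and Hs578T cells was measured on 4 Affymetrix arrays, grouped by the line and construct in the labels. The authors deposited log2 expression values for 33297 probe sets. The values ran from 2.40 to 14.81, which was read as a log2 scale. The software was Affymetrix Expression Console (1.1.2800.28061), per the submitters' processing notes. Its summarization and normalization settings are not given in the sources used here. Array medians ran from 7.83 to 7.86, so a change in total RNA per cell would be hidden.

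A single gene was annotated to 19460 probe sets, several to 1754 and none to 12083, and only the first were used. Where a gene had more than 1, the brightest on average was taken. The filter on low values removed genes with a mean under log2 6.16, which 25% of probe sets lay under. The limma package (3.58.1, R 4.3.3) fitted line and construct to all remaining genes, with an intensity trend, 1 residual degree of freedom and a prior of 5.04. P-values were adjusted by Benjamini-Hochberg over all 15946 genes and called at 0.05. The fit was tested on simulated data. The line term pairs each FBP1 array with its control. The small number of arrays limits precision.

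Members and lists were chosen with earlier results of these data known. Of 184 listed genes, 170 could be named on the array and 165 were tested. Named genes were the members, FBP1, CDH1, the other EMT factors, up to 6 genes per list with the largest line difference, up to 4 with the largest FBP1 change, and the 3 nearest profiles of 4 members. Some list genes were counted in place of being named. BTRC, GSK3B, DNMT3A, MBD4, SUZ12, DSP, VIM and the markers were added for their roles, after their values were seen. Alternatives covered the filter, normalization, probe set rule, variance prior, model terms and left-out arrays.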

Additional observations from a re-analysis of the deposited data

Results flagged for a closer look

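Of the 10 members, 3 had FBP1 changes of opposite sign in the lines, as did the proposed target CDH1, and none of these differences was tested. The signs were alike for 70% of members and for 51.2% of all tested genes, so opposite signs were common. The MDA-MB231 change minus the Hs578T change was 0.42 for SNAI2 (0.04 and −0.38), −0.21 for DNMT1 (−0.05 and 0.16) and −0.027 for EHMT1, whose changes were both within 0.03 of 0. For CDH1 it was 0.44 (0.25 and −0.19). The EHMT1 signs were alike after quantile normalization or median centring.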

How the results depend on the processing

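The line difference of the members was called for 5 of 10 as reported, for 5 or 6 under the alternatives of filter, normalization, probe set rule, variance prior and model terms, and for 1 to 6 with an array left out and the line term alone. SNAI1 passed under every one of these, with adjusted p from 0.000886 to 0.0234. Of 120 member line differences recomputed, 110 kept their direction and call, 7 lost the call and 3, all DNMT1, gained it, and none changed direction. The 7 lost calls all came with an MDA-MB231 array left out, when 3238 or 3416 genes were called, against 6482 with the line term alone on all 4 arrays. The FBP1 change over both lines was called for 0 members under all alternatives, also without the cell line as the block, and 0 members passed 1.5-fold or 2-fold in either line. Over all lists, 82 to 86 genes were called, against 88. Members with no replicate culture have no other measure of error. The member differences near 0.2 log2, those of SNAI3 and EHMT1, had intervals that reach 0.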
